A study of Mus musculus with 8 samples.

Results

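The Fat, Dachsous, Celsr and protocadherin genes encode very large cell surface proteins of the cadherin superfamily, and 10 of them were examined in maps of N6-methyladenosine (m6A) from mouse vascular smooth muscle cells (VSMCs). The 10 genes were *Fat1*, *Fat3*, *Fat4*, *Dchs1*, *Celsr1*, *Celsr2*, *Pcdh1*, *Pcdh7*, *Pcdh18* and *Pcdh19*. A peak was assigned to a gene where its summit lay in an annotated exon. There were 301 such summits among 42744 in 4 peak lists, and they came from 8 of the 10 genes among 6075 genes with any exonic summit. m6A-RIP-seq had been run on 8 samples, with an antibody pulldown (IP) and an input library for replicates A and B of 2 groups. The cells were primary VSMCs grown from descending aortas of C57BL/6J mice aged 8 to 12 weeks and passaged in culture. They were transduced with a lentivirus that expressed a short hairpin RNA. The shCTR group received a hairpin against a plant miRNA, and the shMettl14 group received one against *Mettl14*, which encodes the partner of METTL3 in the nuclear m6A methyltransferase. The knockdown acted in cultured cells that still carried the *Mettl14* gene, and nothing stated that replicates came from separate animals, so that p-values measured only the spread between these samples. The peak lists gave no expression level and held no summit in *Mettl14* in any list, so the knockdown could not be checked here. Where 4 values stand together below, they follow the order shCTR A, shCTR B, shMettl14 A, shMettl14 B.

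Cadherins bind cadherins on neighbouring cells through repeated extracellular domains. FAT4 binds DCHS1 on the adjacent cell, and this pair carries planar polarity and growth signals between cells. FAT1 and FAT3 are related giant cadherins, and FAT1 acts at cell edges and on the actin cytoskeleton and limits smooth muscle cell growth. CELSR1 and CELSR2, the flamingo cadherins, are adhesion receptors of the core planar cell polarity pathway. PCDH1, PCDH7, PCDH18 and PCDH19 are non-clustered protocadherins, which give weaker, more selective adhesion and signal through their cytoplasmic tails. In most of these genes a single exon carries a long run of cadherin repeats. In mammals m6A is found mainly near stop codons and in unusually long internal exons, at the motif DRACH, where D stands for any base but C, R for a purine and H for any base but G.

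Strong and recurrent peaks were found at a fixed place in several of these transcripts. For 6 of the 8 genes with summits, the sequence around the DRACH site nearest the middle of its strongest region is shown, because it is the motif closest to the middle of the antibody signal. The region chosen was, among those found in all 4 lists, the one whose fold enrichment ranked highest on average within the lists. Each run has 29 nt of GRCm38 transcript sequence, 5′ to 3′ on the strand of the gene, with the motif in capitals.
Fat1 (chr8:45050950-45050978, plus strand, exon 27, coding): acccccaccagaGGACTtccctgcacccg
Fat4 (chr3:39010789-39010817, plus strand, exon 17, coding): agtggggcagctAAACCagccgccaaaga
Dchs1 (chr7:105755576-105755604, minus strand, exon 21, coding): cagccgtgccagTGACTgtcactgtgctg
Celsr2 (chr3:108412683-108412711, minus strand, exon 1, coding): atttgtggaagaGAACAgccccatcgggc
Pcdh7 (chr5:57718795-57718823, plus strand, exon 1, 5′ UTR): gcagtgtcccgtGAACTgtgagtactgcg
Pcdh18 (chr3:49756465-49756493, minus strand, exon 1, coding): agtggacgtgctGGACAttaatgacaatt

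The *Fat1*, *Fat4* and *Pcdh18* regions had the highest mean percentiles among the coding ones shown above. For these, the transcript from 50 nt before to 50 nt after the median summit shows how densely such motifs were spaced. Capitals mark every DRACH motif that lies wholly within the run.
Fat1 (chr8:45050913-45051013): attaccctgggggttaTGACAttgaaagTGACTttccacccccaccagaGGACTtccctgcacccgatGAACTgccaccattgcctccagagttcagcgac
Fat4 (chr3:39010703-39010803): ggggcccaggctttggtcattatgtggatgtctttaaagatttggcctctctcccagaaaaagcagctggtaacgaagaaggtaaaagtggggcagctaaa
Pcdh18 (chr3:49756434-49756534): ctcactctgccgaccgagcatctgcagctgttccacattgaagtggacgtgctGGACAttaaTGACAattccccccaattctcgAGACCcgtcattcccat
The *Fat1* run held 4 motifs, with the A of a GGACT motif 1 nt from the median summit. The *Pcdh18* run held 3 motifs. The *Fat4* run held 0 whole motifs, and its nearest DRACH site began at the edge of the window, 50 nt from the median summit to the A.

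Most summits of these genes fell in 2 genes. *Fat1* had 27, 19, 32 and 25 summits in the 4 lists. *Fat4* had 25, 18, 29 and 18. Together they held 193 of the 301 summits, or 64.1%. The groups overlapped for both genes, with the A list higher than the B list of its own group each time.

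*Pcdh7*, a protocadherin gene with nearly its whole extracellular part in exon 1, followed with 11, 10, 12 and 8 summits. *Dchs1*, which encodes the binding partner of FAT4, had 5, 4, 8 and 4 summits. The groups overlapped for both.

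*Pcdh1* had 4 and 5 summits in the shCTR lists and 3 and 2 in the shMettl14 lists. *Pcdh19*, whose human counterpart is known for a female-limited epilepsy, had 4, 2, 5 and 2, and *Pcdh18* had 4, 2, 2 and 2. *Celsr2* had 2, 1, 3 and 3. *Pcdh1* and *Celsr2* were the 2 of 8 genes whose groups neither overlapped nor tied, in opposite directions and by 1 summit each. Over all genes with a summit in every list, 454 of 3690 (12.3%) did not overlap, of which 45 (1.22%) were higher in shCTR, as *Pcdh1* was, and 409 (11.1%) were higher in shMettl14, as *Celsr2* was. With 2 lists a group, an exact permutation test of a single gene's count cannot give a two-sided p below 0.333, and no other test was run on these counts.

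*Fat3* and *Celsr1* had 0 summits in every list. Both have the gene structure of their relatives, with a longest coding exon of 4074 nt in *Fat3* against 4068 nt in *Fat1*, and of 3589 nt in *Celsr1* against 3310 nt in *Celsr2*. The lists do not separate a transcript that was not expressed from one that was expressed without m6A, and in these bulk samples fewer expressing cells and less RNA per cell cannot be told apart.

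**Figure D1:**
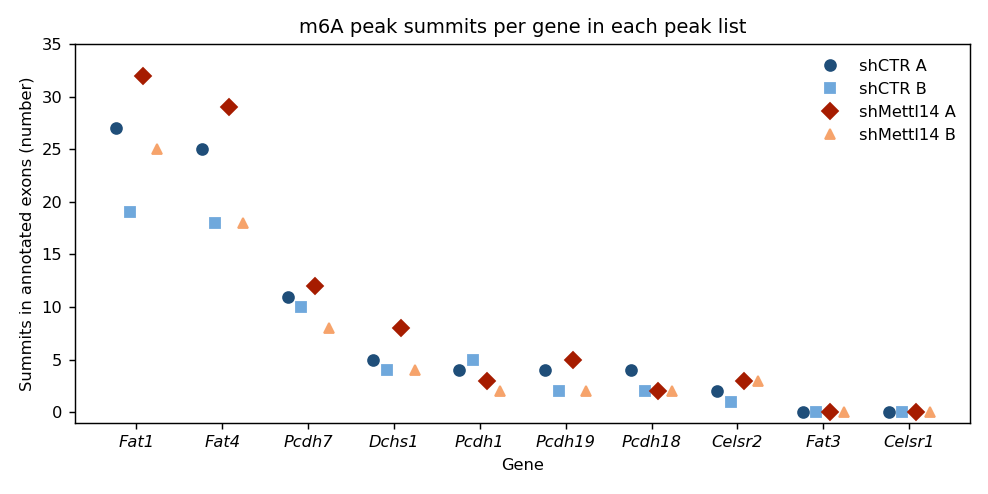
Number of peak summits in annotated exons (vertical axis) of each of the 10 genes (horizontal axis), with 1 point for each of the 4 peak lists. *Fat1* and *Fat4* stood far above the other genes in every list, *Fat3* and *Celsr1* lay at 0, and the points of both groups intermingled for most genes.

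The total over the 10 genes was 82, 61, 94 and 64. The shCTR lists averaged 71.5 ± 14.8 and the shMettl14 lists 79.0 ± 21.2 (SD, n = 2 each), a ratio of 1.11 (exact permutation test over the lists, two-sided, p = 0.667, where the smallest possible p was 0.333). The lists themselves differed in length, with 11158, 8655, 13675 and 9256 summits. Per 1000 summits of the list, the 10 genes held 7.35 and 7.05 in shCTR and 6.87 and 6.91 in shMettl14, so the ratio fell to 0.958 and both shMettl14 lists lay below both shCTR lists (exact permutation test, p = 0.333). The groups thus overlapped by number and not per 1000 summits, where the p was the smallest the test can give, and the direction changed with this scaling.

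Peaks of these genes lay almost wholly in coding sequence. Coding summits numbered 75 of 82 (91.5%), 55 of 61 (90.2%), 86 of 94 (91.5%) and 57 of 64 (89.1%). The 4 lists differed by little, and the difference of shMettl14 minus shCTR was -0.54 percentage points (exact permutation test, two-sided, p = 1.0). Over exonic summits of all other coding genes the coding share was 62.4% to 64.0%. Among other genes with a coding exon of at least 2000 nt it was 87.2% to 88.5%, which was close to the share of these 10 genes. Coding sequence made up 76.2% of the length of the 8 transcripts that had summits. It made up 94.25% of the *Fat1* and 92.8% of the *Fat4* transcript, the 2 genes that held most of the summits.

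Summits within 200 nt of the stop codon were few, with 4, 4, 4 and 5 in the 4 lists. They made up 4.26% to 7.81% of the summits, against 24.5% to 26.1% for all other genes and 8.90% to 9.78% for other genes with a coding exon of at least 2000 nt. Such positions were 4.00% of the length of the 8 transcripts. In each list 3 summits lay in 5′ UTRs, those of *Pcdh7* and *Pcdh19*, and 2 to 4 lay in 3′ UTRs.

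**Figure D2:**
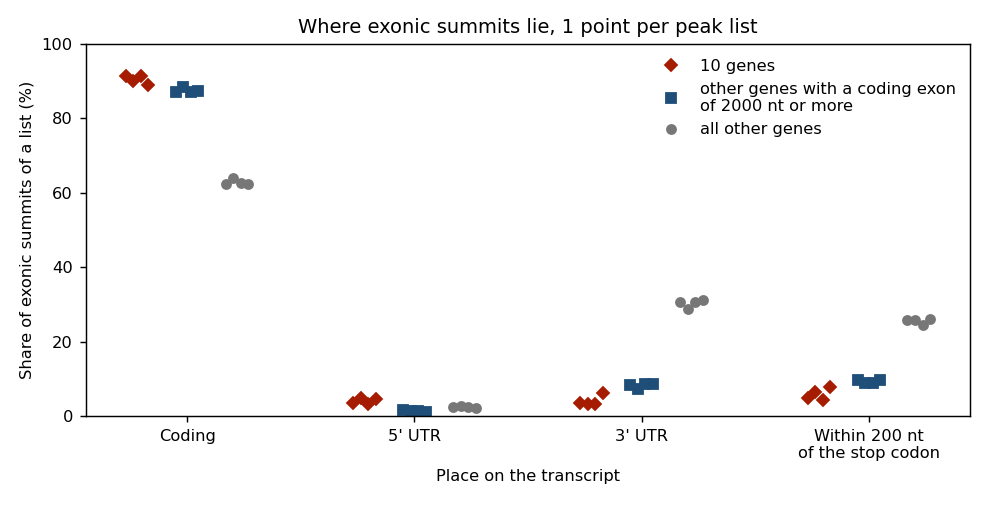
Share of exonic summits (vertical axis, percent) that lay in coding sequence, in either UTR, or within 200 nt of the stop codon, for the 10 genes, for other genes with a coding exon of 2000 nt or more, and for all other genes, with 1 point per peak list. The 10 genes lay at 89.1% to 91.5% coding and near the other genes with long coding exons, well above the 62.4% to 64.0% of all other genes.

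Within the coding sequence, summits gathered in the longest exons. The 8 transcripts had 13 coding exons of at least 1000 nt, and every one of them held a summit. These exons were 61.4% of the coding length and held 85.3%, 81.8%, 81.4% and 82.5% of the coding summits. The share was 54.2% to 55.2% over all other genes and 91.5% to 92.4% over other genes with a coding exon of at least 2000 nt, so the 10 genes lay between the 2 sets. Their summits in these exons corresponded to 1.20 to 1.86 summits per kb of coding sequence in a list.

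Of 39 coding exons from 200 nt to under 1000 nt, 10 held a summit in at least 1 list, at 0.655 to 0.983 summits per kb. Of 61 coding exons under 200 nt, only 2 did, at 0 to 0.120 summits per kb, and both were *Fat1* exons with a summit in 1 list. Summits at least 200 nt from the nearest exon junction of the transcript were 73 of 81 (90.1%), 54 of 60 (90.0%), 87 of 92 (94.6%) and 61 of 64 (95.3%), where 71.1% of all transcript positions lie so far. Both shMettl14 lists lay above both shCTR lists, by 4.88 percentage points on average (exact permutation test over the lists, two-sided, p = 0.333, the smallest it can give). For all other genes this difference was 0.78 points, and for other genes with a coding exon of at least 2000 nt 0.15 points, which was not tested against the 10 genes. The share over all other genes was 82.4% to 84.2%, and over other genes with a coding exon of at least 2000 nt it was 90.8% to 92.2%.

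Ranked by the mean number of summits in the single longest coding exon, *Fat1* exon 9 (9.5 per list, 4068 nt) was 9th, *Fat4* exon 1 (9.0, 5175 nt) 11th and *Pcdh7* exon 1 (8.5, 3174 nt) 15th among 3556 genes with a coding summit. The 5 other genes at the head of this order were *Ahnak* (41.75 per list, exon of 16626 nt), *Plec* (15.5), *Gvin1* (14), *Map1a* (14) and *Mki67* (11.5). Ties were ordered by name. *Gvin1* has near-identical copies, and reads that match several copies would drop out, because the authors kept only uniquely mapped reads. A coding exon of at least 2000 nt did not go with a peak in every case, since 350 of 700 such genes had a summit in all 4 lists and 265 had none.

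*Fat1* showed a repeated pattern of summits along its 13809 nt of coding sequence. When summits of the 4 lists within 100 bp of each other were taken as 1 site, *Fat1* had 35 sites, of which 19 were found in all 4 lists. Exon 1 held 7 of the sites found in all 4 lists, exon 9 held 6, and exons 18, 21 and 24 held 1 each. The last exon, exon 27, held 3, among them the strongest.

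The strongest *Fat1* site lay 444 nt before the stop codon, in exon 27. It had 131, 139, 104 and 96 fragments at the summit, as recovered from the fold enrichment and p-value of the peak. The fold enrichment over the local background was 22.8, 21.1, 18.6 and 25.6, and the summits of the 4 lists lay within 9 nt of each other. These values stood at percentiles 98.6, 97.4, 97.8 and 99.3 of the fold enrichment in their lists, so that by rank the groups overlapped, while the fragment counts of shCTR lay above those of shMettl14.

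Other *Fat1* sites were well below it. The site in exon 21, 1861 nt before the stop codon, had 100, 86, 68 and 74 fragments and percentiles of 72.4, 75.5, 65.5 and 84.4. The site in exon 1, 654 nt into the coding sequence, had 85, 86, 55 and 70 fragments and percentiles of 67.4, 75.1, 54.9 and 87.9. A site in exon 9, 7606 nt into the coding sequence, had 70, 57, 38 and 56 fragments. At each of these 3 sites the fragment counts were higher in the shCTR lists with no overlap, while the percentiles of fold enrichment overlapped (67.0, 58.3, 55.4 and 89.6 at the last).

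On either side of the *Fat1* stop codon lay 2 weaker sites that all 4 lists shared. One was 79 nt before it, with 55, 51, 41 and 34 fragments, and the other 143 nt after it in the 3′ UTR, with 60, 55, 40 and 38 fragments. At both, the percentiles were between 44.2 and 68.6, and those of the groups overlapped at the first and were slightly higher in shCTR at the second.

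Fragment counts are not scaled for depth. Over all sites of these genes found in all 4 lists, the shCTR counts lay above the shMettl14 counts with no overlap at 26 of 42, against 2158 of 5547 such sites (38.9%) over all genes. The opposite was seen at 0 of 42, against 114 of 5547 (2.06%). Most of the 26 were in *Fat1*, which held 19 of the 42 sites. All of its 19 but the exon 24 site (59, 44, 44 and 45 fragments) were higher in shCTR with no overlap. The rest of the 26 were in *Fat4* and *Pcdh7*, so the share mainly describes *Fat1*, whose sites lie on 1 transcript. The median count over all summits of a list was 16, 16, 14 and 13, and over the summits of these genes it was 21.5, 19, 17.5 and 17. The part of depth, and of the higher counts of these genes, in this difference was not tested.

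*Fat4* peaks were spread over exons 1, 5, 9 and 17, and 13 of its 36 sites were found in all 4 lists. The highest was 87 nt before the stop codon, with 52, 24, 35 and 35 fragments. The percentiles were 97.4, 61.8, 94.0 and 98.4, so shCTR B stood apart from the other 3 lists. In shCTR B the strongest summit of the region was instead the site 1155 nt before the stop codon, with 26 fragments at percentile 79.2.

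In exon 5 of *Fat4*, a site 6457 nt into the coding sequence had 34, 18, 21 and 19 fragments and percentiles of 92.9, 66.4, 80.5 and 83.6. In exon 1, a site 4091 nt into the coding sequence had 25, 22, 21 and 22 fragments and percentiles of 60.2, 75.2, 55.5 and 88.0. The percentiles of the groups overlapped at both.

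*Pcdh7* gave a single region from the 5′ UTR to near the end of exon 1 (chr5:57718453-57722118), with 41 summits in the 4 lists and 5 of 16 sites in all of them. Its highest site lay in the 5′ UTR, 300 nt before the coding sequence, with 50, 63, 44 and 47 fragments. The fold enrichment was 12.5, 15.1, 11.7 and 18.3, and the percentiles were 82.2, 88.9, 83.3 and 94.8, which overlapped between groups. Within the coding part of exon 1, the site 1797 nt from the start had 42, 48, 34 and 33 fragments and percentiles of 63.4, 81.8, 73.5 and 76.8.

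Of the 41 *Pcdh7* summits, 17 also lay in an exon of *4932441J04Rik*, which runs on the opposite strand, and 7 of these were the 5′ UTR summits. In all, 25 of the 301 summits lay in exons of another gene, each of 5 genes being antisense to the gene examined. The peak lists carry no strand, so reads of the 2 genes of such a pair cannot be told apart there.

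**Figure D3:**
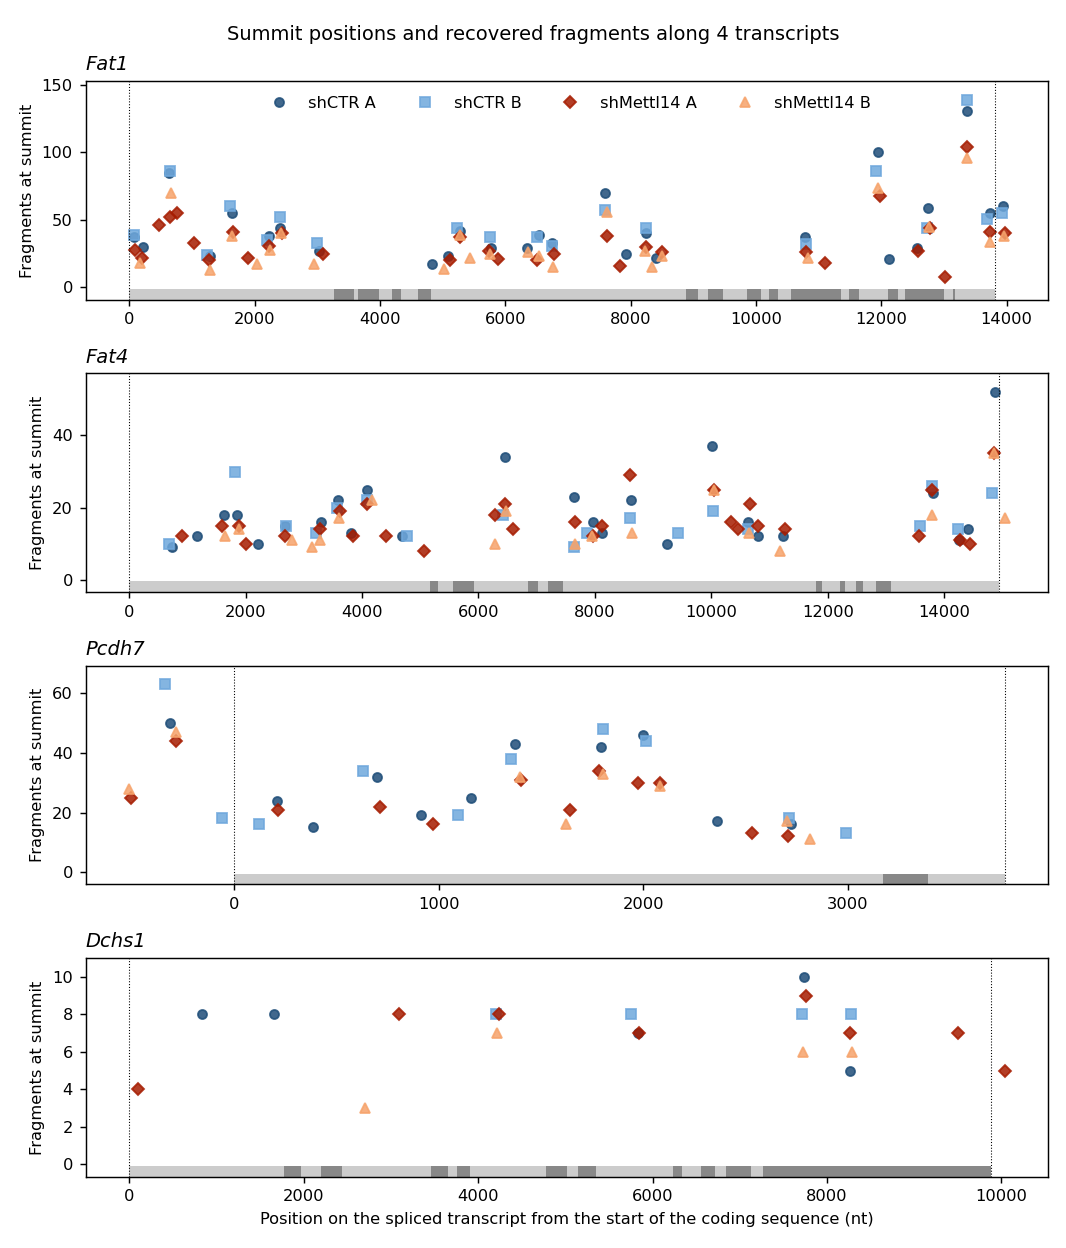
Fragments recovered at each summit (vertical axis) along the spliced transcripts of *Fat1*, *Fat4*, *Pcdh7* and *Dchs1* (horizontal axis, nt from the start of the coding sequence), by peak list. Grey blocks are successive coding exons and dotted lines the start and end of the coding sequence. Summits crowded over the long exons, and the *Fat1* site near the end of the coding sequence reached 96 to 139 fragments.

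*Dchs1* peaks were small, with at most 10 fragments at any summit, and 2 of its 11 sites were found in all 4 lists. Both lay in exon 21, its last and longest coding exon. The site 2144 nt before the stop codon had 10, 8, 9 and 6 fragments and percentiles of 63.7, 46.5, 63.6 and 28.9. The site 1607 nt before the stop codon had 5, 8, 7 and 6 fragments. The groups overlapped at both, and 7 of the 11 *Dchs1* sites were seen in only 1 list.

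*Celsr2* had 1 site in all 4 lists, in exon 1, which encodes the cadherin repeats. It had 7, 9, 6 and 7 fragments and percentiles of 41.2, 54.1, 35.3 and 32.2, with both shCTR percentiles above both shMettl14 percentiles and a tie at 7 between the fragment counts of the groups. A site in the 3′ UTR, 494 nt after the stop codon, had 9 fragments in shCTR A, 13 in shMettl14 A and 7 in shMettl14 B and was not listed in shCTR B. Fragment counts under 15 leave each of these values with wide counting error.

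*Pcdh18* and *Pcdh19* each had 1 site in all 4 lists, in exon 1. The *Pcdh18* site, 381 nt into the coding sequence, had 15, 10, 13 and 14 fragments and percentiles of 70.1, 55.1, 70.9 and 66.2. The *Pcdh19* site, 519 nt into the coding sequence, had 26, 15, 17 and 17 fragments and percentiles of 92.8, 36.7, 70.3 and 73.5. The 2 shCTR lists lay on either side of the shMettl14 lists in *Pcdh19*, and shCTR A alone gave the highest value.

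Across genes, fold enrichment did not follow the number of fragments, and the local background, which the caller estimates from the input library, differed widely. At *Fat1* summits the median background was 6.31, 5.53, 5.09 and 3.51 fragments in the 4 lists, which was 79.4 to 84.1 times the smallest background of the list. At *Fat4* summits it was 1.46, 1.36, 1.23 and 0.623 fragments, or 14.9 to 19.9 times the smallest. At *Dchs1* summits it was 0.224, 0.202, 0.205 and 0.119 fragments, or 2.85 to 3.34 times the smallest.

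The median fold enrichment was 4.90 to 6.61 at *Fat1* summits, 6.70 to 8.36 at *Fat4* summits and 6.06 to 7.49 at *Dchs1* summits. *Fat1* summits had a median of 37, 44, 27.5 and 26 fragments, the highest of the 8 genes except in shMettl14 B, where *Pcdh7* had 28.5. In each list their median fold enrichment was below that of *Fat4*. Over the 10 genes the mean percentile of fold enrichment was 32.5, 39.6, 35.9 and 43.3 in the 4 lists, against 51.5 to 51.9 for exonic summits of all other coding genes.

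**Figure D4:**
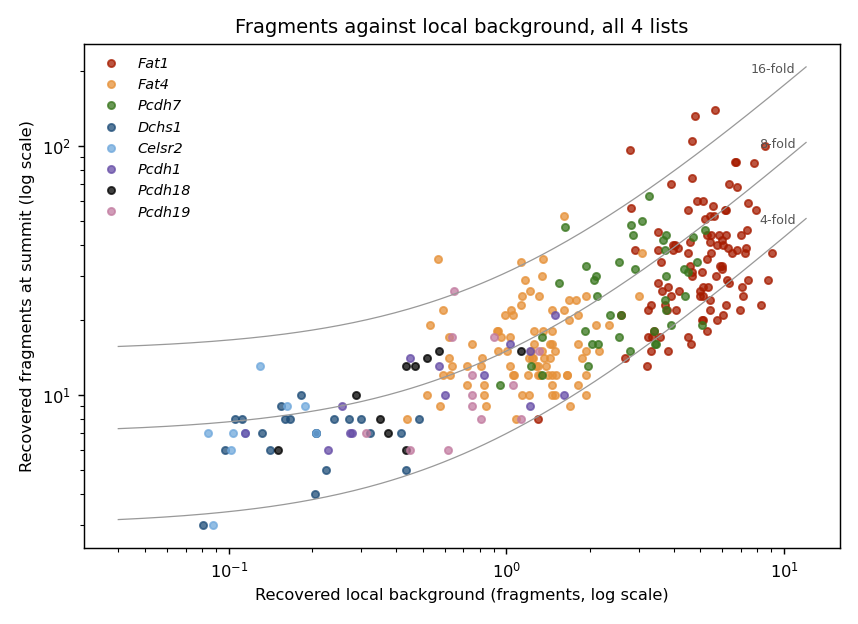
Fragments recovered at each of the 301 summits (vertical axis, log scale) against the local background (horizontal axis, log scale), coloured by gene over all 4 lists, with grey curves of equal fold enrichment. *Fat1* summits lay at the right with the highest backgrounds and fragment counts, and *Dchs1* and *Celsr2* summits lay at the lower left.

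The DRACH motif was near most summits, as it was near most positions of these transcripts. Within 50 nt of the summit, 95.1%, 98.3%, 94.6% and 95.3% of the summits placed on the transcripts had a DRACH motif. The difference of shMettl14 minus shCTR was -1.76 percentage points (exact permutation test, two-sided, p = 0.667). Of all positions of the same 8 transcripts 89.9% were within 50 nt of such a motif, and the share over summits of all other genes was 95.0% to 96.2%. GGACT on the transcript strand was within 50 nt of 12.4% to 16.7% of the summits, against 12.4% of all positions of the 8 transcripts, 19.8% to 23.8% of summits of all other genes and 16.3% to 22.2% for other genes with a coding exon of at least 2000 nt.

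The groups overlapped in their level of enrichment. The mean percentile over all summits of the 10 genes averaged 36.1 ± 5.03 over the shCTR lists and 39.6 ± 5.23 over the shMettl14 lists (SD, n = 2 each), 3.56 percentile points apart (exact permutation test, two-sided, p = 0.667). By gene, the mean percentile was higher in shMettl14 for 5 genes and lower for 3. The groups did not overlap for 4 of 8 genes, against 1219 of 3690 (33%) over all genes with a summit in every list. These were *Fat4* (39.4 and 40.2 in shCTR, 44.1 and 55.5 in shMettl14), *Pcdh7* (30.3 and 35.5, then 41.3 and 56.4), *Pcdh1* (23.9 and 43.0, then 50.95 and 43.5) and *Celsr2* (49.6 and 54.1, then 41.1 and 37.9). The first 3 were higher in shMettl14 and *Celsr2* was lower, where over all genes 541 (14.7%) were higher and 678 (18.4%) were lower. The means average different summits in each list. For *Celsr2*, shMettl14 A alone held a summit of 3 fragments at percentile 1.47. For *Pcdh7*, only the shCTR lists held a site at percentiles 9.85 and 0.306, and only the shMettl14 lists held one at 60.4 and 75.7. No test per gene was run. Because these are ranks within a list, a loss of m6A shared by all sites would leave them in place.

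Merging the intervals of the 4 lists gave 51 regions for these genes, of which 25 (49.0%) were found in all 4 lists, against 43.4% over all regions. *Fat1* gave 9 of the 25, *Fat4* gave 8, *Pcdh18* and *Pcdh19* gave 2 each, and *Dchs1*, *Celsr2*, *Pcdh1* and *Pcdh7* gave 1 each. The highest fold enrichment of a region was turned into a normal score of its rank within each list and compared between groups with limma over all 4929 regions found in all 4 lists. Of the 25 regions 0 passed an unadjusted p under 0.05, where 243 of 4929 (4.93%) did overall. After Benjamini-Hochberg adjustment in limma, 0 of 4929 regions (0%) passed 0.05. Fisher's exact test on recovered fragments summed over replicates gave 0 of the 25 at p under 0.05 against 126 of 4929 (2.56%) over all regions. The methods name this kind of test with an added log2 fold change cutoff of 1, which was not applied here. The test takes fragments as its units. It sets each region against the group's total over the shared regions, so a loss common to all of them would not show.

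In limma 16 of the 25 differences were positive, with a median of 0.09 on the normal score scale against 0.00 over all regions. This direction turned with the measure, since 12 of 25 were positive with −log10 p (median -0.04) and 12 of 25 with recovered fragments (median -0.05). Without shMettl14 B 11 of 29 were positive (median -0.14). The lowest unadjusted p was 0.0515, for a *Fat4* region in exon 9 (chr3:38982023-38983222), with a normal score difference of 1.05 ± 0.51 (SE) and an adjusted p of 0.985. Its strongest summit had 37, 19, 21 and 25 fragments and percentiles of 63.9, 23.2, 78.6 and 79.7. Here shCTR B stood far below the other 3 lists, and the strongest shMettl14 A summit was a different one, 639 bp from the farthest of the others. For the *Fat1* region in exon 27 the difference was 0.12 ± 0.50 (SE), with an adjusted p of 0.999 in limma.

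**Figure D5:**
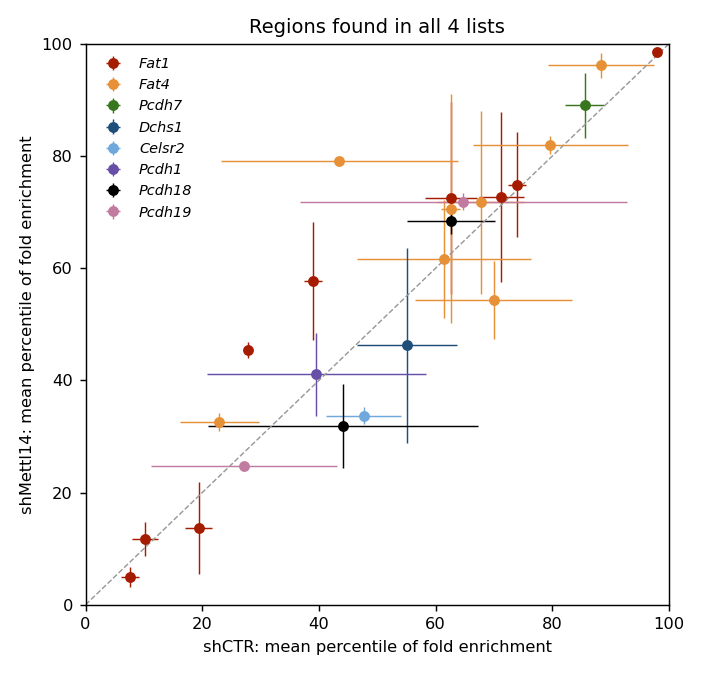
Mean percentile of the highest fold enrichment in shMettl14 (vertical axis) against shCTR (horizontal axis) for the 25 regions found in all 4 lists, coloured by gene, with bars from one replicate to the other. Regions lay on both sides of the dashed line of equality, from a *Fat1* region below percentile 10 to the *Fat1* region in exon 27 above 97, and the *Fat4* region in exon 9 with the lowest p lay well above the line.

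Presence in both lists of one group and neither of the other was rare. It was found for 2 of the 51 regions, both in shCTR only, against 194 of 11361 regions (1.71%) overall. In shMettl14 only there were 0 of 51, against 203 of 11361 (1.79%). This direction did not hold with the same number of top peaks in each list, where 1 of 38 regions was in shCTR only (3.64% overall) and 1 in shMettl14 only (1.03% overall). Without shCTR A there were 2 of 47 in each direction (6.27% and 6.47% overall). Without shMettl14 B 3 of 50 were in shCTR only (3.13% overall) and 9 in shMettl14 only (14.4% overall). The direction was kept without shCTR B, with 6 of 51 in shCTR only (11.3% of all regions) and 1 in shMettl14 only (3.51%). It was also kept without shMettl14 A, with 6 of 42 (7.8%) and 1 (6.56%). With all 4 lists, the first of the 2 regions was a *Fat4* region in exon 9 (chr3:38981405-38981754), with 10 and 13 fragments at percentiles 2.25 and 36.4. Its intervals overlapped, but the summits lay 190 bp apart and counted as 2 sites, each in 1 list. The second was in the 3′ UTR of *Pcdh1*, with 7 and 9 fragments at percentiles 29.1 and 5.66. Both were weak in the lists that held them.

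*Pcdh1* (chromosome 18) had 6 sites, of which 0 were found in all 4 lists. In exon 2 a region was shared by all 4, with 6, 13, 7 and 9 fragments, but the shMettl14 A summit lay 253 nt from the farthest of the others. A site in exon 3, 1303 nt before the stop codon, had 10, 21 and 12 fragments in shCTR A, shCTR B and shMettl14 B. In the intervals that the authors deposited as the overlap of both replicates, the 10 genes had 48 of 6706 intervals in shCTR and 44 of 6440 in shMettl14. *Pcdh1* exons had 4 in shCTR and 0 in shMettl14, although the exon 2 intervals of the 2 shMettl14 lists overlap each other, so the 0 is no sign that peaks were absent from those lists. *Celsr2* had 1 and 2 and *Pcdh18* 2 and 1. The numbers were equal for *Fat1* and *Fat4* (15 each), *Pcdh7* (6), *Dchs1* (3) and *Pcdh19* (2).

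Related genes were counted in the same lists. Of 11 other large cadherins, *Dchs2* and *Pcdh9* had a summit in all 4 lists and 9 had none. *Pcdh9*, a protocadherin with a long exon 2, had 7, 6, 8 and 7 summits, and *Dchs2* had 2, 3, 3 and 4. Among 16 classical cadherins and catenins, 6 had a summit in all 4 lists, including *Cdh2* with 1 in each and *Cdh11* with 2, 1, 4 and 2.

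Of 18 planar cell polarity genes and partners of Fat and Dachsous, 8 had a summit in all 4 lists and 8 had none. *Fjx1*, whose product phosphorylates cadherin domains of the Fat and Dachsous proteins, had 2, 2, 3 and 1 summits, and *Vangl1* had 3 in each list. Of 16 Hippo pathway genes, which act downstream of Fat cadherins in flies, 8 had a summit in all 4 lists, and *Lats2* had 6, 5, 12 and 5. For each of the genes named with its counts, the groups overlapped or tied.

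As a check of the labelled cell type, 1 of 7 smooth muscle markers (*Lmod1*, 4, 4, 7 and 4 summits) had a summit in all 4 lists and *Myh11* had one in 3 lists. Of 6 endothelial markers, *Pecam1*, *Cdh5* and *Erg* had a summit in all 4 lists and *Kdr* had one in 3 lists. Of 5 adventitial fibroblast markers *Pdgfra* had a summit in all 4 lists, and of 5 blood cell markers 0 did. A peak needs both RNA and m6A, so these counts say little on how much of each cell type was present. Before culture, enzymes had stripped the adventitia and the endothelial layer had been scraped off. Whether RNA of endothelial cells entered the peaks of the 10 genes was not tested.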

How the data were processed

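The authors mapped reads to mm10 with STAR and kept only uniquely mapped reads with SAMtools. They ran MACS2 on each IP library with its input as control, per the labels and methods. The methods state the genome release, but software versions and MACS2 options are not given in the sources used here. The deposited lists hold, for each summit, the fold enrichment (a ratio to local background) and −log10 of the p and q values, and the authors deposited 1 interval file per group with the overlap of replicates. The input libraries entered only as background, and the lists hold no read total, so the depth of each library is unknown here beyond the single target that the methods state for all samples. IP fragments and background at each summit were recovered from the deposited fold and −log10 p (largest error 0.000151 in −log10 p). Fragment counts carry counting error, and also differences between libraries such as depth, for which they were not scaled. The percentile is the rank of fold enrichment within a list.

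Summits were placed on GENCODE M21 exons (GRCm38), with 1 complete coding transcript per gene: the longest coding sequence, preferring models with both UTRs. Of 301 summits 297 lay on it. Regions are merged intervals (at least 1 bp shared). Tests were limma 3.58.1 in R 4.3.3 over all regions and exact permutation tests in Python 3.11.15. limma was used because the lists hold ratios, not counts. The replicate letters were not used as pairs (correlation of A minus B between groups 0.0795 over 4929 regions). All 10 genes are named, the 8 with summits each with the strongest region in all lists, regions at unadjusted p under 0.05 and regions in 1 group only. The genes and lists were chosen with earlier results of these data known. Sequences of the strongest regions of the other 2 genes with summits are not reported here.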

Additional observations from a re-analysis of the deposited data

How the results depend on the processing

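Each of the 6 results was recomputed under alternatives, and the differences between groups were small enough to change direction. The summit ratio of 1.11 was 0.956 with the same number of top peaks per list (8655), 0.958 per 1000 summits and 1.0 without *Fat1* and *Fat4* (chosen after seeing the data), and 0.895 to 1.31 without one list, below 1 without shCTR B (0.963) or shMettl14 A (0.895). The coding share difference of -0.54 points was 0.62 when each interval was counted once, and -1.75 to 0.676 without one list, positive without shCTR A (0.112) or shMettl14 B (0.676). The percentile difference of 3.56 was -0.142 to 7.25 without one list, near 0 without shCTR A (-0.00102) or shMettl14 B (-0.142), and 0.489 with −log10 p and 0.208 with recovered fragments in place of fold enrichment. The DRACH share difference of -1.76 points was 5.08 within 25 nt and 0 within 100 nt, where every summit had a motif, and -3.39 to -0.123 without one list. The number of regions at an unadjusted p under 0.05 in limma went from 0 to 1 with the replicate block (a paired fit in which 5.92% of all regions passed), with centred log2 fold enrichment (4.91%), without shCTR A (4.70%), and with summit sites in place of regions (1 of 42 sites, chosen after seeing the data, against 5.14%). A fit without one list takes the spread from the other group and assumes that the lone list varies alike. Each such call was in *Fat4*, the range without one list was 0 to 1, and 0 regions of these genes passed after adjustment in any limma fit, where 3 of 5076 regions did overall without shMettl14 A and 0 in the other fits. The regions in 1 group only rose from 2 of 51 (3.49% overall) to between 4 of 47 (without shCTR A, 12.7% overall) and 12 of 50 (without shMettl14 B, 17.5%), with 7 of 51 without shCTR B (14.8%) and 7 of 42 without shMettl14 A (14.4%), since fewer lists then have to match. The cause of the other changes was not tested. Low fragment counts, with a median of 13 to 16 per summit, limit single sites, for example in *Dchs1* and *Celsr2*, with medians of 6 to 9.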
